A study of Homo sapiens with 32 samples.

Results

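Peaks far from any gene are places where chromatin-associated RNA was enriched by an antibody against N6-methyladenosine (m6A) although the genome annotation records no gene there. A peak was placed in this class when its summit, the base of highest enrichment, lay in no gene span of the RefSeq table for the build hg38 and more than 10 kb from the edge of the nearest span. Of 180114 peaks in 4 lists, 8429 met the rule. They numbered 2130 of 45345 in control replicate 1, 2226 of 47692 in control replicate 2, 2057 of 44108 in knockdown replicate 1 and 2016 of 42969 in knockdown replicate 2. Pseudogenes and non-coding genes counted as genes, so these peaks are also far from annotated long non-coding RNAs. At the distance limit, the nearest peak that was kept lay 10003 bp from a gene and had a fold enrichment of 2.84, and the nearest that was left out lay at 10000 bp and had a fold of 5.65. There were 253 peaks between 10 and 11 kb and 237 outside genes between 9 and 10 kb.

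The series examined m6A on RNA of cancer cells, and the histone CENPA, which marks centromeres, and centromeric RNA are named in its title. The 4 libraries used here, of 32 samples in 16 groups, came from A375 cells, an established human melanoma line. Both groups carried a hairpin RNA: shControl, whose genotype label is WT, or shMETTL3, whose genotype label is METTL3 knockdown, with 2 libraries each. RNA was taken from the chromatin fraction, depleted of ribosomal RNA, mixed with an m6A spike-in, fragmented and enriched with the antibody. No promoter or clone is named for the hairpins, and separate cultures are not stated for the replicates, whose spread may thus be technical.

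m6A is placed on RNA during transcription by a methyltransferase complex whose catalytic subunit is METTL3. RNA that stays on chromatin includes nascent transcripts and RNA outside annotated genes, such as transcription that runs past gene ends, RNA made at enhancers, long non-coding RNA that annotations have not recorded and RNA of repeats. A transcript that is methylated at many places gives a row of peaks on 1 strand, which is how a transcribed stretch can be recognised in peak lists. The amount of an RNA cannot be read from a peak list. A peak that is missing from a list may reflect less methylation, less of the RNA or fewer cells that make it, and these cannot be told apart here.

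METTL3 (chr14:21498138-21511340, minus strand) held 5 peaks in each of the 4 lists, a count that says nothing about its RNA level. Of 8 marker genes of the melanocyte lineage, 2 (MITF and PAX3) held a peak in each list. Leukocyte markers held none of 5 in any list, keratinocyte markers none of 5 in either control list but 1 of 5 in each knockdown list, and fibroblast markers 1 of 5 in knockdown replicate 2 alone. The part of these in the results was not tested. How deeply the libraries were sequenced is unknown.

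Far peaks made up a similar small share of every list. The shares were 4.70% and 4.67% in control replicates 1 and 2 and 4.66% and 4.69% in knockdown replicates 1 and 2, so that the groups overlapped. The means were 4.682% ± 0.0211 in control and 4.678% ± 0.0199 in knockdown (SD, n = 2 each; exact two-sided permutation test, p = 0.667). In number, far peaks were 2178 ± 67.9 per control list and 2036.5 ± 29.0 per knockdown list (exact permutation p = 0.333, the smallest that 2 against 2 libraries allow). They covered 923.6 kb ± 51.1 in control and 852.4 kb ± 12.7 in knockdown (SD, n = 2 each; exact permutation p = 0.333). The median distance to the nearest gene was 44.6 to 45.3 kb, and 47.0% to 48.8% of far peaks lay on the plus strand.

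Far peaks resembled the other peaks of their list in fold enrichment. The fold, the authors' own value for a peak, was compared as a median only within a list. A common cut at a fold of 4 was also applied to all lists below. It kept 44.4% and 37.5% of far peaks in control replicates 1 and 2 and 49.7% and 48.5% in knockdown replicates 1 and 2. For other peaks it kept 45.5% and 39.8% in control and 48.3% and 48.0% in knockdown. Folds of different lists may not share a scale. The median fold of far and other peaks was 3.81 and 3.84 in control replicate 1, 3.61 and 3.65 in control replicate 2, 3.97 and 3.92 in knockdown replicate 1, and 3.96 and 3.93 in knockdown replicate 2. The mean difference over the 4 libraries was 0.00242, smaller than its spread between libraries (exact sign-flip permutation test, p = 0.875). Far peaks were wider, with medians of 282 to 292 bp against 254 to 267 bp, a mean difference of 26.5 bp that had the same sign in 4 of 4 libraries. Their median −log10 q was lower, 24.3 to 25.2 against 29.5 to 30.3, a mean difference of −5.05 seen in 4 of 4 libraries. Both of these reached p = 0.125, the smallest that an exact sign-flip test over 4 libraries can give.

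The comparison of the groups asks which far m6A sites differ when METTL3 is knocked down. For it, same-strand peaks of the 4 lists that overlapped by 1 bp or more were merged into loci. This gave 66409 loci, of which 3098 held a far peak and are called far loci, with a median width of 306 bp. In 15 of them another peak, of the same or another list, had its summit within 10 kb of a gene. Control replicate 1 had a peak in 1948 far loci, control replicate 2 in 2114, knockdown replicate 1 in 1876 and knockdown replicate 2 in 1826. Replicates shared most of them: 85.0% of the far loci of control replicate 1 were also in replicate 2, and 80.1% of those of knockdown replicate 1 were in its partner. All 4 lists held 1013 far loci (32.7%, against 35.7% of all loci), and 840 (27.1%) were in a single list.

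Most of the far loci that both replicates of a group held were also found in the other group. Both control lists held 1656 far loci. Neither knockdown list had a peak at 422 of these (25.5%, with a Wilson interval of 23.4% to 27.6% at 95% confidence), which are called control-only. Over all loci of the lists this share was 22.6%. Both knockdown lists held 1502 far loci. The control lists lacked 328 of these (21.8%, 19.8% to 24.0%), called knockdown-only, against 18.9% over all loci. Control-only far loci thus outnumbered knockdown-only ones 1.29 to 1, close to the 1.32 to 1 of all loci. The intervals cover counting error only, and neighbouring loci are not independent, so they are too narrow for a test. The choice of peaks mattered. Without peaks under a fold of 4, the control-only share was 27.2% and the knockdown-only share 29.8%, so that their order turned. This cut kept a smaller part of the control than of the knockdown peaks, among far and other peaks alike. The control lists were also longer. With all lists limited to their 42969 best peaks, the control-only share was 22.9% and the knockdown-only share 24.2%, so that their order turned as well. The shares over all loci were not computed in either setting, so neither turn can be called particular to far loci.

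Loci found in 1 group only had lower median folds than those in all 4 lists. Far loci in all 4 lists had median folds of 4.43 and 4.25 in control replicates 1 and 2 and of 4.73 and 4.66 in knockdown replicates 1 and 2. Control-only far loci had medians of 3.58 and 3.48 in the 2 control lists, and knockdown-only far loci 3.73 and 3.83 in the 2 knockdown lists.

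The control-only share did not change steadily with distance from genes. It was 24.9% at 10 to 25 kb, 31.1% at 25 to 50 kb, 19.5% at 50 to 100 kb, 25.7% at 100 to 200 kb and 30.8% beyond 200 kb. The knockdown-only share in the same bins ran from 18.2% to 23.8%. Loci outside genes but within 10 kb of one, which are not far loci, had a control-only share of 35.4% and a knockdown-only share of 23.9%. No test over loci was made.

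**Figure D1:**
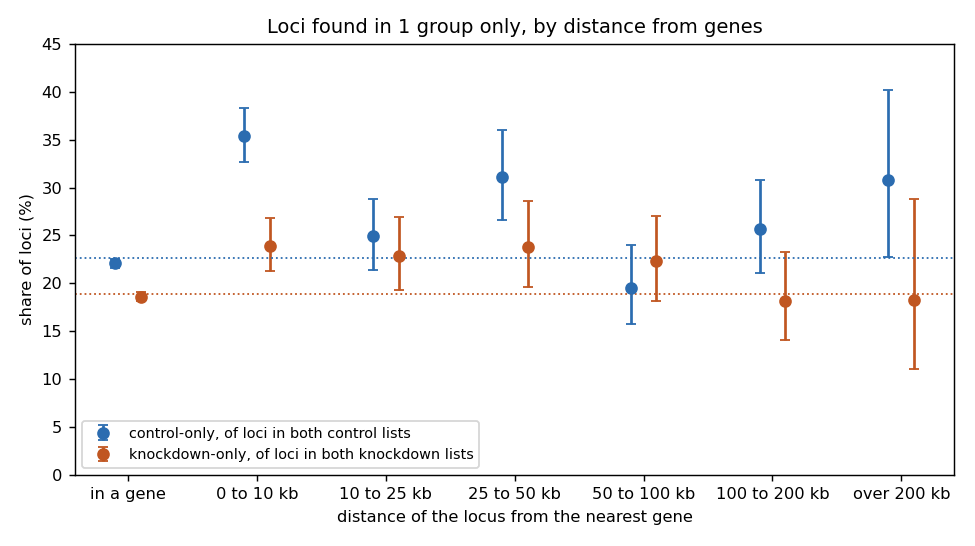
Share of loci found in 1 group only, by distance from the nearest gene. Blue points are control-only loci as a percentage of loci in both control lists, orange points knockdown-only loci as a percentage of loci in both knockdown lists. Bars are 95% Wilson intervals, which cover counting error only, and the dotted lines mark 22.6% and 18.9%, the shares over all loci. In the far bins, from 10 kb on, the control-only share lies above its line except at 50 to 100 kb (19.5%). The knockdown-only share lies above its line up to 100 kb (22.9%, 23.8% and 22.3%) and slightly below it beyond (18.2% and 18.3%). The bin beyond 200 kb rests on 175 loci. The 15 far loci with a peak within 10 kb of a gene are in no bin.

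Far loci were not spread evenly over gene-free sequence. The far territory, all sequence more than 10 kb from a gene, measured 989.7 Mb and held 3.13 far loci per Mb, against 36.5 loci per Mb in gene spans. Without the gaps of 2 Mb or more it measured 784.5 Mb and held 3.93 far loci per Mb. Of 13653 gaps between neighbouring genes long enough to hold a far position, 563 (4.12%) held a far locus. Of these, 188 had a single far locus, while the 10 fullest gaps held 413 far loci (13.3%). The nearest gene was a long non-coding RNA for 44.2% of far loci, a pseudogene for 37.2% and a protein-coding gene for 10.2%. A gene beside the gap held a peak itself in 305 of the 563 gaps (54.2%), against 32.8% of all such gaps.

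Within gaps the loci lay in rows on 1 strand. A stretch was defined as at least 3 far loci on the same strand with no more than 10 kb from edge to edge and no gene between them. There were 390 stretches, 183 on the plus and 207 on the minus strand, and they held 2099 far loci (67.8%). Loci elsewhere in the genome, chained by the same distance and number but also across genes, lay in chains to a similar extent (68.5%). The median stretch had 4 loci over 7.99 kb, with 622 bp between neighbouring loci. The longest ran over 60.7 kb, 33 stretches had 10 or more loci, and all stretches together spanned 4.15 Mb. Of 198 gaps with at least 5 far loci, 170 (85.9%) had all of them on 1 strand.

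Few stretches were continuous with peaks in or close to an annotated gene. Only 371 far loci (12%) and 60 stretches (15.4%) belonged to a same-strand row that reached a locus in a gene or within 10 kb of one. The other 330 stretches (84.6%) stood free by this rule. The strand of the nearest gene was known for 140 stretches, of which 56 lay downstream of a gene on its own strand, 32 upstream on its own strand and 52 on the opposite strand. Of the 56 downstream stretches, 8 were joined by such a row to a locus in or within 10 kb of a gene. That gene need not be the one they lay downstream of. Among joined far loci the control-only share was 19.8% (42 of 212) and the knockdown-only share 18.3% (39 of 213). Among free-standing far loci the shares were 26.3% (380 of 1444) and 22.4% (289 of 1289).

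Most stretches were present in every library. In 298 of 390 (76.4%) each of the 4 lists held a peak. For comparison, all loci were chained in the same way, except that these chains could run across genes. Both control lists held more loci than both knockdown lists in 131 stretches (33.6%), against 31.0% of the chains of all loci. The reverse held in 95 (24.4%, against 20.9%), and in the remaining 164 the libraries of the groups overlapped. With peaks of a fold of at least 4 the balance turned, with 36 stretches fuller in control and 63 fuller in knockdown. The chains of all loci were not counted at this cut, which kept a smaller part of the control than of the knockdown peaks. A stretch with no peak at all in either knockdown list was seen 32 times among the 358 stretches present in both control lists (8.94%, against 4.34% of all chains). A stretch with no peak in either control list was seen 15 times among 329 (4.56%, against 3.17%).

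Loci of a stretch that were found in 1 group only were mostly of 1 kind, as they were in the chains of all loci. Among the 135 stretches with at least 2 loci found in 1 group only, 73 (54.1%) had control-only loci and no knockdown-only ones, against 50.7% of the chains of all loci. In 47 (34.8%, against 27.1%) all such loci were knockdown-only. Both kinds were found in 15 (11.1%, against 22.2%). Over all far stretches and all chains of other loci, the median was 4 loci in both and the median lengths were 7.99 and 10 kb. Medians were not computed for the sets compared here, and the part of length in these shares was not tested.

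**Figure D2:**
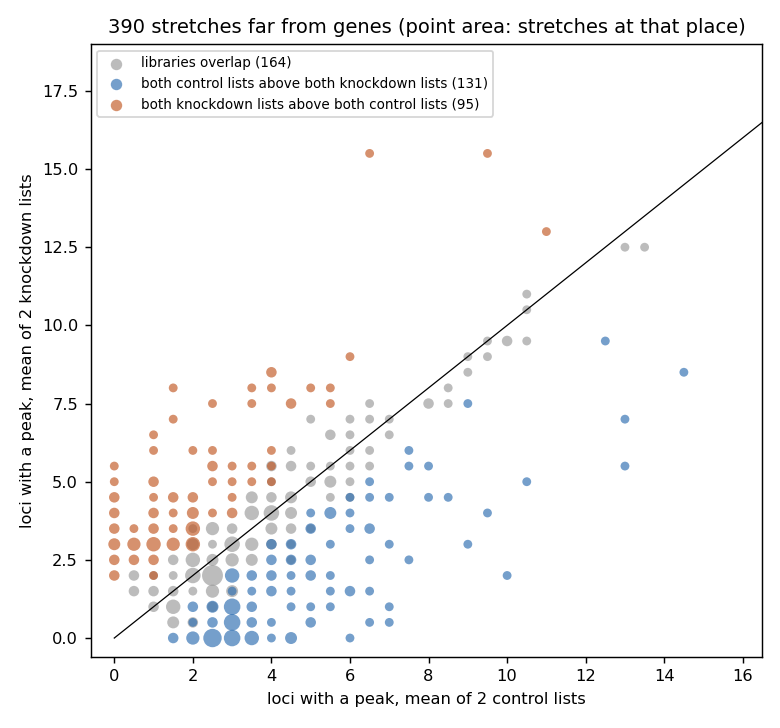
Number of loci with a peak in each of the 390 stretches far from genes, as the mean of the 2 control libraries (horizontal axis) and the mean of the 2 knockdown libraries (vertical axis). The point area grows with the number of stretches at that place, and the line marks equal numbers. Blue marks the 131 stretches in which both control lists were above both knockdown lists, orange the 95 with the reverse order and grey the 164 in which the libraries overlapped.

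The fullest gap lay on chromosome 12 between the long non-coding RNA gene LOC124902889 and RERGL, a gene for a small GTPase of the Ras family. These fullest gaps were picked after their values were seen. In 385.0 kb this gap held 68 far loci, 28 of them on the plus strand, in 7 stretches. Control replicates 1 and 2 each had a peak in 31 of them, knockdown replicate 1 in 61 and knockdown replicate 2 in 55, so that the groups were far apart. Of its 25 loci in both control lists none was control-only (22.6% over all loci), and of its 50 in both knockdown lists 17 were knockdown-only (34%, against 18.9%). In 6 of its 7 stretches both knockdown lists were fuller, and in the other the libraries overlapped.

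Of the 4 stretches with the most loci anywhere, 17 each, one lay in this gap (chr12:17783682-17811814, plus strand, 87.9 kb from LOC124902889 and 269.0 kb from RERGL). Control replicates 1 and 2 had 9 and 10 of its loci and knockdown replicates 1 and 2 had 15 and 16. At its right end a broad locus (chr12:17810284-17811814) was present in all 4 lists, with folds of 4.13, 3.86, 4.12 and 8.79. Loci at chr12:17808620-17809146 and chr12:17809845-17810134 just before it were knockdown-only, the first with folds of 3.51 and 4.04. On the opposite strand, 15.9 kb to the left, lay a stretch of 9 loci (chr12:17753411-17767807). Its counts were 4 and 4 in control and 8 and 9 in knockdown, with 4 knockdown-only loci. Among the 5 highest-ranked far loci of all 4 lists was another locus of this gap (chr12:17905195-17910081, minus strand), whose folds were 9.37 and 8.54 in control and 9.91 and 9.77 in knockdown.

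Pairs of stretches on opposite strands were few. Within 25 kb of each other there were 2 divergent, 1 convergent and 4 overlapping pairs of stretches on opposite strands. Both members of the chromosome 12 pair were fuller in knockdown. In an overlapping pair on chromosome 1 (minus-strand stretch chr1:68387935-68390267, plus-strand stretch chr1:68386324-68392594) both were fuller in control, with 5, 4, 3 and 3 loci on the minus strand and 6, 6, 4 and 5 on the plus strand in control replicates 1 and 2 and knockdown replicates 1 and 2. No pair had 1 strand fuller in control and the other fuller in knockdown.

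Other full gaps differed in either direction or not at all. The gap on chromosome 9 between LOC124902137 and LOC107987059 held 35 far loci, all on the plus strand, with 29 and 27 in control and 16 and 11 in knockdown. All 3 of its stretches were fuller in control. Of its 23 loci in both control lists 9 were control-only (39.1%, against 22.6% over all loci). Of its 11 in both knockdown lists none was knockdown-only (18.9% over all loci). On chromosome 13, 38 plus-strand loci between LINC02335 and HNF4GP1 were found 33 and 35 times in control and 25 and 23 times in knockdown. Of those in both control lists 6 of 31 were control-only (19.4%, below the 22.6% over all loci). Of those in both knockdown lists 0 of 21 were knockdown-only (18.9% over all loci). This gap held the far peak with the highest fold of any list (chr13:55284268-55285152, 22 in knockdown replicate 2). The locus around it was in all 4 lists, and its folds were 4.55 and 4.43 in control and 10.9 in the other knockdown library.

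On chromosome 4, between RFPL4AP3 and LOC105374528, the 32 plus-strand loci had 19 and 20 peaks in control and 29 in each knockdown list. Of those in both knockdown lists 7 of 26 were knockdown-only (26.9%, against 18.9% over all loci). Of those in both control lists 0 of 18 were control-only (22.6% over all loci). A 35-locus gap on chromosome 2 between LOC105374813 and SUCLA2P2 was nearly the same in all libraries (28 and 31 in control, 28 and 29 in knockdown), with 23 loci in all 4 lists. The 49 loci between LOC392440 and RNU6-1087P on chromosome X numbered 24 and 30 in control and 37 and 34 in knockdown. The 48 minus-strand loci between LOC101928563 and RPL18P8 on chromosome 11 numbered 37 and 39 in control and 30 and 29 in knockdown. Of the 35 loci of this gap in both control lists 12 were control-only (34.3%, against 22.6% over all loci). Of its 26 in both knockdown lists 4 were knockdown-only (15.4%, against 18.9%).

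**Figure D3:**
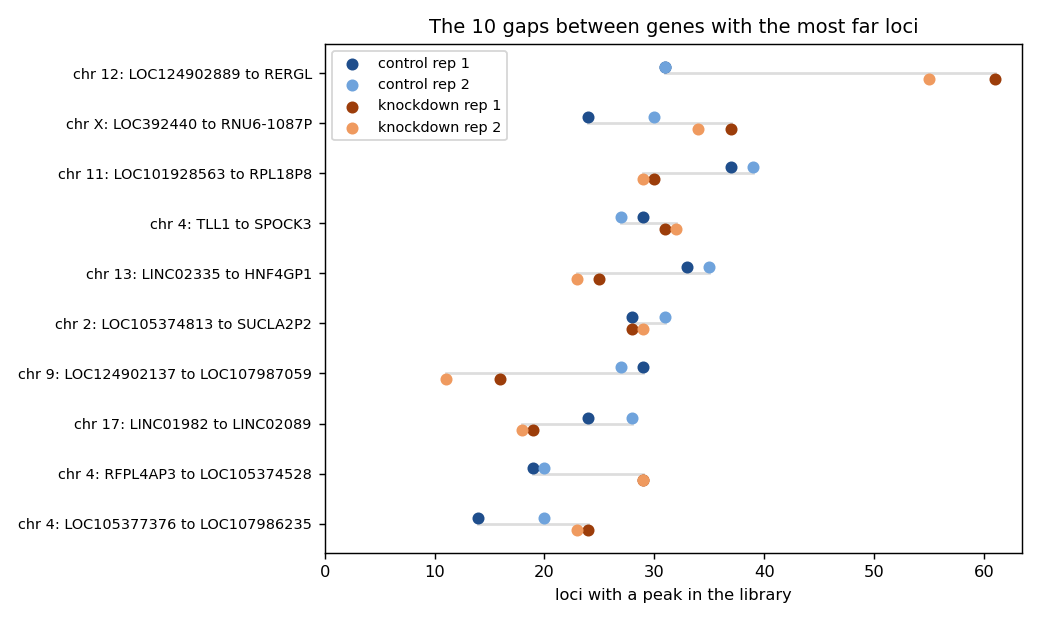
Far loci with a peak in each library in the 10 gaps between genes that hold the most far loci. Each row is a gap named by its flanking genes, the horizontal axis counts loci, blue points are the 2 control libraries and orange points the 2 knockdown libraries. The chromosome 12 gap stands at 31 loci in both control libraries and 61 and 55 in the knockdown libraries, while the chromosome 9 gap stands at 29 and 27 against 16 and 11.

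Over 153 gaps with at least 2 far loci found in 1 group only, 73 had control-only loci alone, 48 knockdown-only loci alone and 32 both. No matching count was made for loci elsewhere in the genome, so these numbers only describe the gaps. The counts per chromosome are given beside the shares of the other loci of the same chromosome, with no test. The chromosomes named were not chosen in advance. On chromosome 9, 41 of 98 far loci in both control lists were control-only (41.8%, against 23.6% of its other loci), and 5 of 47 in both knockdown lists were knockdown-only (10.6%, against 18.9%). On chromosome 3 these shares were 41% (25 of 61, against 24.4%) and 17.9% (7 of 39, against 18.4%). Chromosome 12 had a control-only share of 12.3% (9 of 73, against 22.3%) and a knockdown-only share of 34.5% (40 of 116, against 17.8%). Chromosome 22 had 2.7% (1 of 37, against 23.2%) and 27.7% (13 of 47, against 21.4%). Further chromosomes lay as far from their other loci. On chromosome 14, 15 of 38 were control-only (39.5%, against 20.3%), and on chromosome 19, 11 of 25 were knockdown-only (44.0%, against 18.5%). Chromosome 4, with the most far loci (299), had 18.9% and 18.4%, against 23.2% and 18.3% of its other loci. Of the 40 knockdown-only loci of chromosome 12, 17 came from the gap beside RERGL, and of the 41 control-only loci of chromosome 9, 9 came from the gap beside LOC124902137. Without the RERGL gap, the shares over all far loci were 25.9% control-only and 21.4% knockdown-only.

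**Figure D4:**
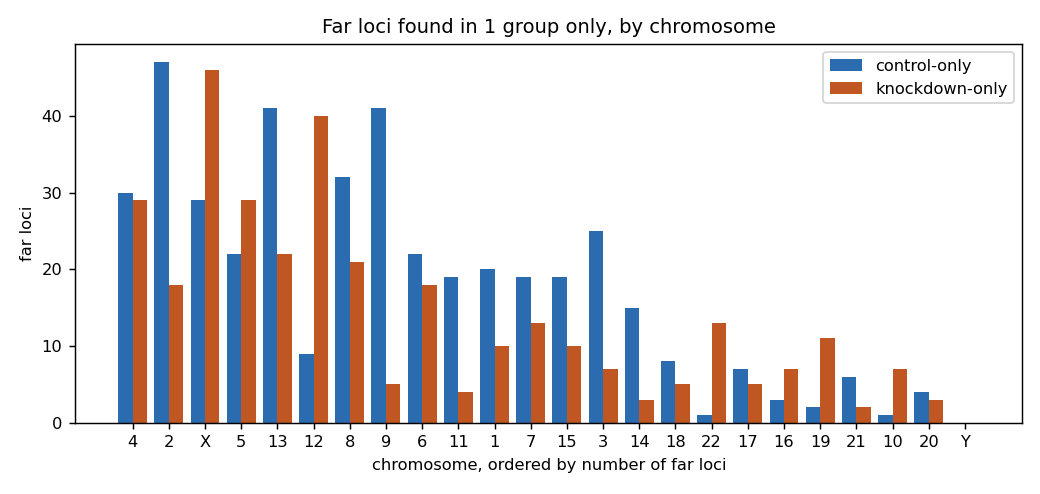
Number of control-only (blue) and knockdown-only (orange) far loci on each chromosome, with chromosomes ordered by their number of far loci. Chromosome 9 has 41 against 5 and chromosome 12 has 9 against 40, while chromosome 4 has 30 against 29.

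Among the longest stretches, presence in the lists varied widely. On chromosome 4 a plus-strand stretch (chr4:23602406-23636602, between the pseudogene RFPL4AP3 and LOC105374528) had 6 and 7 of its 17 loci in control replicates 1 and 2 and 16 and 15 in knockdown replicates 1 and 2. Its 6 loci in all 4 lists included chr4:23621515-23622452, with folds of 4.72, 6.13, 7.63 and 6.69. Its 7 knockdown-only loci lay between and around these, such as chr4:23613601-23613925 with folds of 3.97 and 3.22. Its difference of control-only and knockdown-only loci went from −7 to 0 with peaks of a fold of at least 4 and to −1 with a −log10 q of at least 20. On chromosome 3 the order was the reverse: the 17 loci of chr3:145363777-145412566 (plus strand, 111.0 kb from LARP7P4) were found 14 and 15 times in control and 8 and 9 times in knockdown. Of these 5 were control-only and 6 were in all 4 lists. Among the latter, chr3:145376894-145379364 had folds of 3.17, 3.0, 11.8 and 8.38 and chr3:145388935-145389868 had 6.55, 6.55, 7.24 and 5.92. All control-only loci of the stretch lay to the right of the first of these, so that presence and fold did not differ in the same direction along it. With peaks of a fold of at least 4 the difference of its control-only and knockdown-only loci turned from 5 to −2.

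The other stretch of 17 loci was found in overlapping numbers in the groups. It lay on the plus strand between TLL1, a tolloid-like metalloprotease gene, and SPOCK3, a gene for a proteoglycan of the testican family (chr4:166259081-166312058). It began 155.0 kb past TLL1, which is on the same strand. The lists held 15, 12, 12 and 13 of its loci in control replicates 1 and 2 and knockdown replicates 1 and 2, and 9 were in all 4. A locus of 3596 bp (chr4:166304242-166307837) had folds of 11 and 11 in control and 11.4 and 11.9 in knockdown. A smaller stretch on the same strand further along the gap (chr4:166430787-166442072, 291.0 kb from SPOCK3) had 3 loci in each knockdown list and was absent from both control lists. Its locus chr4:166434533-166435041 had folds of 7.48 and 6.85.

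In 3 of the next 4 stretches by number of loci the groups also overlapped. On chromosome 13, chr13:69345929-69370378 (plus strand, 23.8 kb from LINC00383) had 16 loci, with 14 and 12 in control and 15 and 10 in knockdown. On chromosome 11, chr11:39024472-39085187 (minus strand) was the longest of all at 60.7 kb and had 10 and 11 of its 15 loci in control and 10 and 11 in knockdown. It was 1 of 2 stretches tied at 15 loci. On chromosome X, chrX:35375323-35419633 (minus strand) had 7 and 11 of 16 loci in control and 9 and 8 in knockdown. On chromosome 8, chr8:16336099-16358253 (minus strand, 14.3 kb from LOC101929028) had 13 and 12 of 16 in control and 10 and 9 in knockdown, so that among these 4 only this one had groups that did not overlap.

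The highest numbers of control-only loci in a stretch were 6, in 2 stretches, and 5, in 6 stretches. Of the latter, the first 3 in order of chromosome name and position are described here with the 2 above them, and the one on chromosome 3 with 17 loci was described above. None of these 5 had a knockdown-only locus. On chromosome 13, chr13:63918076-63936707 (minus strand, 39.1 kb from NFYAP1) had all 7 loci in both control lists, 0 in knockdown replicate 1 and 1 in knockdown replicate 2. The 1 locus kept (chr13:63925663-63925840) had folds of 5.53 and 5.97 in control and 4.36 in that library. On chromosome X, chrX:99429072-99444073 (plus strand, 213.0 kb from TEX101P1) had 10 loci in each control list and 3 and 1 in knockdown. The locus kept in all 4 lists (chrX:99440324-99440617) had folds of 4.0, 4.5, 3.66 and 3.78. A second stretch further on along the same strand (chrX:99514758-99522063) had 3 loci in each control list and none in the knockdown lists.

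On chromosome 2, chr2:193577369-193600374 (plus strand, between DNAJC17P1 and SEC61GP1) had 12 and 14 loci in control and 5 and 6 in knockdown. Its strongest locus (chr2:193595164-193595865) was in all 4 lists with folds of 7.3, 7.37, 7.43 and 8.59, and its 5 control-only loci included chr2:193588197-193588525 with folds of 5.31 and 5.81. On chromosome 3, chr3:27945723-27959445 (minus strand, 47.8 kb from LINC01967) had 10 and 9 loci in control and 4 in each knockdown list. On chromosome 11, chr11:38915762-38945091 (minus strand, 29.0 kb from LOC101928563) had 13 loci in each control list and 8 and 6 in knockdown. With peaks of a fold of at least 4, the difference of control-only and knockdown-only loci went from 5 to 0 in this stretch, from 6 to 1 in that of chromosome 13, from 6 to 4 in that of chromosome X and from 5 to 3 in the minus-strand stretch of chromosome 3, and stayed at 5 in that of chromosome 2.

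The most knockdown-only loci were found in the chromosome 4 stretch above (7) and in 2 stretches with 5, on chromosomes 6 and 19. Another 10 stretches had 4, of which the first 2 in the same order, on chromosome 10 and in the minus-strand stretch of chromosome 12 above, are given with them. On chromosome 6, chr6:78401352-78406094 (minus strand, 101.0 kb from LOC105377865) was absent from both control lists and had 6 and 5 loci in knockdown replicates 1 and 2. Its folds reached 5.87 and 5.21 in the 2 knockdown lists, and 5 of its 6 loci were in both. On chromosome 19, chr19:27716147-27733022 (minus strand) lay between LOC105372345 and LINC00662, long non-coding RNA genes on the same strand, at 28.2 and 57.5 kb. Of its 9 loci, control replicates 1 and 2 had 1 and 2 and each knockdown list had 8. Its locus in all 4 lists (chr19:27720667-27721164) had folds of 2.91, 3.35, 5.39 and 5.47. On chromosome 10, chr10:55893974-55898370 (minus strand, 146.0 kb from LOC100419872) had 1 of 5 loci in each control list and 5 in each knockdown list. With peaks of a fold of at least 4, the differences of control-only and knockdown-only loci went from −5 to −2 in the stretches of chromosomes 6 and 19, from −4 to −1 in that of chromosome 10 and from −4 to −2 in that of chromosome 12.

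**Figure D5:**
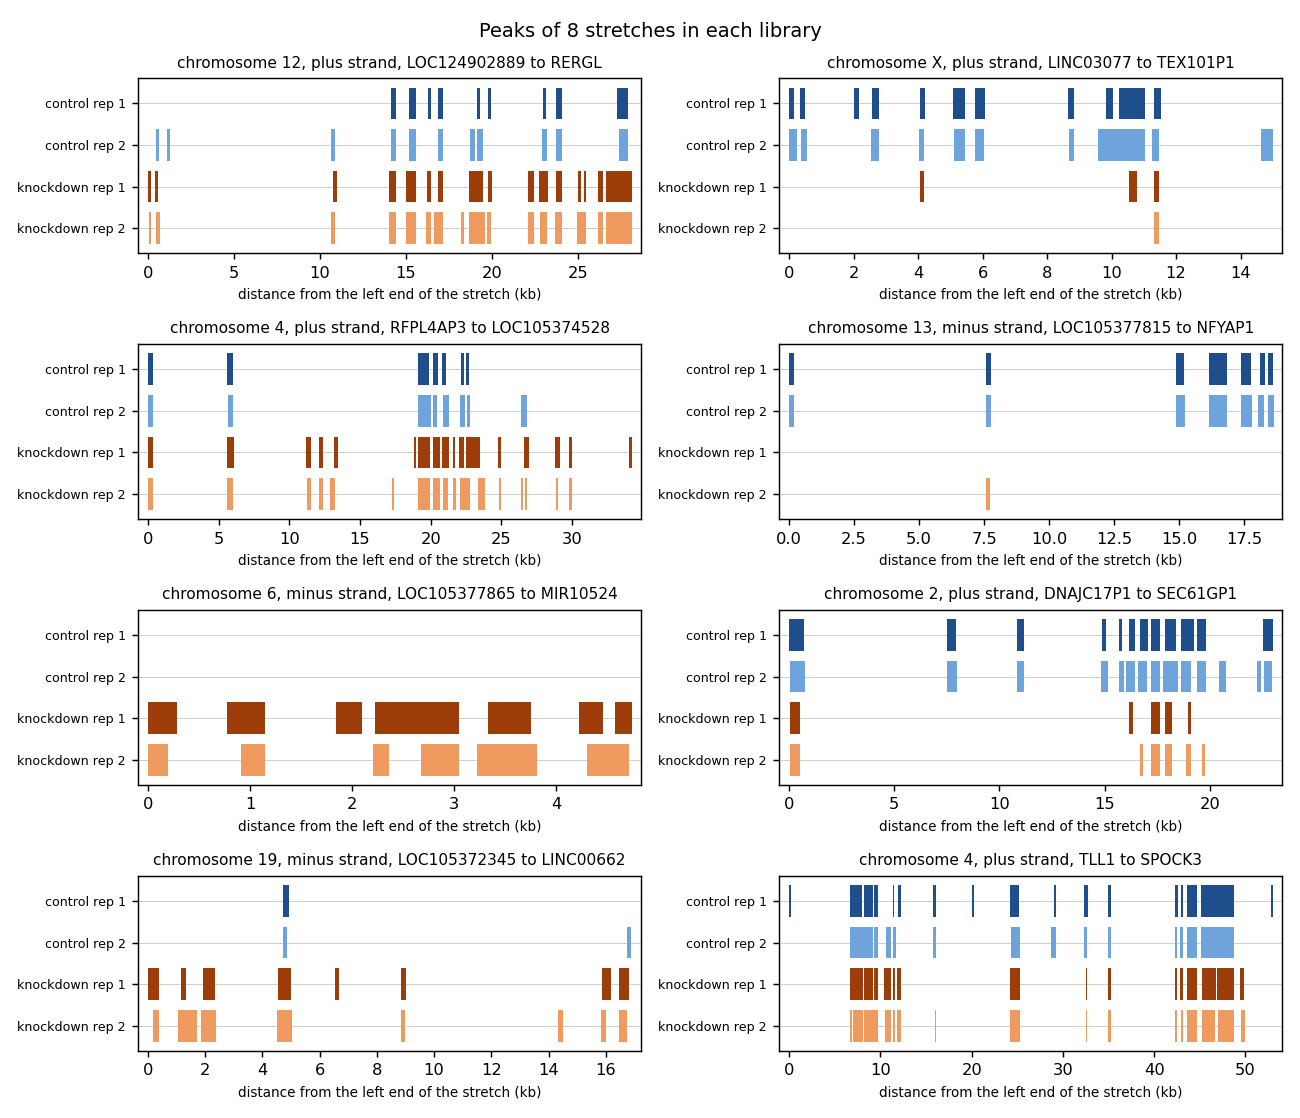
Peaks of 8 stretches in each library, drawn to scale along each stretch in kb from its left end. Rows are control replicates 1 and 2 (blue) and knockdown replicates 1 and 2 (orange), each bar is 1 peak, and the flanking genes stand in the panel titles. The left column shows 4 stretches fuller in knockdown, from 17 loci on chromosome 12 to 6 on chromosome 6 with empty control rows. The right column shows 3 fuller in control (chromosomes X, 13 and 2) and, at the bottom, the stretch between TLL1 and SPOCK3 with 12 to 15 loci in every library.

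Stretches absent from both lists of a group had at most 7 loci. Among the 32 seen in control alone, the 1 with the most loci was chr8:79219436-79228678 (minus strand, 20.9 kb from LOC107986892), with 6 of 7 loci in each control list. On chromosome 5, chr5:85722498-85734302 (plus strand) had 4 and 5 of 6 loci in control, and on chromosome 6, chr6:92560384-92564388 (minus strand, 20.6 kb from LINC02531) had 4 and 5 of 5. One (chr3:32466147-32471021, plus strand, 2 and 3 of 3 loci) lay 10.6 kb past CMTM7, which is on the same strand. CMTM6, on the opposite strand, was 10.3 kb away on its other side. This stretch belonged to a same-strand row that reached a locus in a gene or within 10 kb of one. Among the 15 seen in knockdown alone, chrX:4540661-4545020 (minus strand) had 4 and 5 of 6 loci and chrX:27119668-27131725 (minus strand) had 4 and 5 of 5.

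Single loci were also ranked by fold within each list. The 5 highest in all 4 lists were led by chr5:28083127-28084471 (plus strand, toward LOC100533667), in no stretch, with folds of 11.7, 10.3, 14.1 and 12.2. Its lowest rank was the 99.6th percentile of a list. Of the other 4, 3 lay between TLL1 and SPOCK3, among them chr4:166237009-166238598 (12.8, 8.97, 10.3 and 11.1) and chr4:166302651-166303790 (9.37, 9.42, 10.3 and 9.91), and 1 in the chromosome 12 gap described above. The strongest control-only locus was chr8:79263470-79263753 (minus strand, 18.5 kb from LOC105375915), whose folds in the control lists were 12 and 12.5. It was followed by chr2:139714457-139714704 (plus strand, 18.1 kb from RPL9P13), with 8.81 and 8.38, chr2:193629582-193630033 (plus strand), with 8.04 and 7.87, and chr4:33665578-33666164 (minus strand), with 7.57 and 7.17.

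The far peak with the highest fold of control replicate 2 (chr4:33759895-33760327, minus strand, 121.0 kb from a gene) belonged to a locus in all 4 lists. Its folds were 12 and 12.5 in control but 4.91 and 3.72 in knockdown.

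The strongest knockdown-only loci had lower ranks. They were chr8:75911503-75911707 (plus strand, 18.7 kb from LOC124902089), whose folds in the knockdown lists were 8.55 and 8.07, the chromosome 4 locus beyond TLL1 named above, chr4:134289061-134289364 (minus strand, 37.8 kb from PES1P1), with 7.57 and 6.84, and chr13:37616839-37617485. The last lay on the minus strand between POSTN, the gene of the matrix protein periostin, 18.4 kb away, and TRPC4, a cation channel gene, 14.9 kb away, and had folds of 6.66 and 6.76. Control-only loci of the ranked set reached at least the 94.8th percentile of their lists, and these knockdown-only loci at least the 88.5th.

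The stretches farthest from any gene showed each pattern. On chromosome 6, chr6:102972874-102978746 (plus strand) lay 519.0 kb from TARDBPP5 and had all 5 loci in each control list and 1 in each knockdown list. With peaks of a fold of at least 4, its control-only loci exceeded its knockdown-only ones by 1, down from 4. Its remaining locus (chr6:102976255-102977009) had folds of 4.15, 6.65, 2.54 and 2.4. On chromosome 10, chr10:56062182-56065395 (minus strand) lay 292.0 kb from ZWINT, a kinetochore gene, and had 3, 0, 1 and 2 loci in control replicates 1 and 2 and knockdown replicates 1 and 2, so that the groups overlapped. The last was the stretch 291.0 kb from SPOCK3 that only the knockdown lists held.

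Few far loci lay in the longest gene-free gaps, which in human chromosomes include the centromeres. Of 29 gaps of at least 2 Mb, 6 held a far locus, with 16 far loci in all. Far peaks there numbered 4 and 3 in control replicates 1 and 2 and 12 in each knockdown replicate (3.5 ± 0.707 and 12 ± 0, SD, n = 2 each). The groups did not overlap, and the exact permutation test gave p = 0.333, the smallest it can give. With peaks of a fold of at least 4 the difference of the means shrank from 8.5 to 1.5 (exact permutation p = 0.667). Both knockdown lists held 10 of the 16 loci, and 8 of these were knockdown-only (18.9% over all loci). Both control lists held 3, of which 1 was control-only (22.6% over all loci) and 2 were in all 4 lists.

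Knockdown-only loci were found in 4 of these 6 gaps. On chromosome 15 a minus-strand stretch (chr15:19776155-19779402, 104.0 kb from RNU6-978P) had no peak in the control lists and 3 and 5 of its 5 loci in knockdown replicates 1 and 2, with folds from 2.1 to 3.47. On chromosome 19, 4 minus-strand loci lay 10.74 to 31.52 kb from LOC105372345, and 3 of them were knockdown-only, such as chr19:27649157-27649630 with folds of 4.28 and 3.93. On chromosome 17, chr17:26768606-26768906 was in all 4 lists (4.21, 3.48, 7.5 and 7.54), and chr17:26728483-26728678 was knockdown-only (7.61 and 5.58). On chromosome 4, chr4:49617268-49617638 was in all 4 lists (5.39, 5.29, 6.31 and 8.28), and chr4:49623148-49623387 was the control-only locus (6.79 and 5.89). The locus farthest from any gene in all lists (chr1:125180201-125180405, minus strand, 3608.0 kb from the nearest gene) was knockdown-only, with low folds of 2.78 and 2.39. Repeats are frequent near centromeres, and the labels and headers do not say how reads that match many places were treated.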

How the data were processed

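The 4 peak lists are the authors' deposited files, 1 per m6A-enriched library. Per the submitters' processing notes, the tools were MACS2 2.2.7.1, HISAT2 2.1.0, Bowtie2 2.4.2, Trim Galore 0.6.6 and SAMtools, with hg38. The notes give no roles. Strands were called separately, per the deposited peak names. The knockdown peak names say knockout where the labels say knockdown. Deposited values were a score (not used), the fold enrichment (a ratio) and −log10 p and q. The smallest −log10 q was 2.00, and the narrowest peak was 150 bp. The use of the inputs and the spike-in is not stated in them.

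Distances were taken from peak summits to 59716 RefSeq gene spans (GRCh38.p14, the same build). A strand was known for 48.7% of genes. Peaks were merged to loci, loci chained to stretches, and gaps defined between neighbouring genes, with Python 3.11.15, numpy 2.4.6, pandas 2.3.3 and scipy 1.17.1. The code was tested on simulated peaks. Libraries were compared by exact permutation tests. No test was made over loci, which are not replicates. Shares have Wilson intervals for counting error only; depth is unknown.

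Regions named were the 8 stretches with the most loci, the 5 each with the most control-only and knockdown-only loci, the 3 farthest from genes, and 5 loci in all 4 lists and 4 of either single-group kind by their lowest fold percentile, with ties taken in order of chromosome name and position. Fullest gaps, stretches absent from a group and gaps of at least 2 Mb were added later. The members and lists were chosen with earlier results of these data known. The planned motif count and peak sequences were not run, since no genome sequence was used here. Other samples of the series are not analysed here. The result of 1 marker list is not reported here.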

Additional observations from a re-analysis of the deposited data

Results flagged for a closer look

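The difference in median fold enrichment between far peaks and the other peaks of the same list had opposite signs in the 2 groups. It was −0.0294 and −0.0429 in control replicates 1 and 2 and 0.0509 and 0.0311 in knockdown replicates 1 and 2. The knockdown mean exceeded the control mean by 0.0771. An exact permutation test of this difference gave p = 0.333, the smallest that 2 against 2 libraries allow.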

How the results depend on the processing

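The difference in the share of far peaks, −0.00473 percentage points for knockdown minus control, changed sign with peaks of a fold of at least 4 (0.274), with all lists limited to their 42969 best peaks (0.0943) and without untranscribed pseudogenes among the genes (0.0543, chosen after seeing the data). It ranged from −0.0197 to 0.0102 when 1 library was left out. With a replicate block it was −0.00473 (exact sign-flip permutation p = 1.0); the shared replicate numbers are not stated to pair libraries. The control-only share of 25.5% was 22.9% with lists of equal length, 36.1% with a reciprocal overlap of 50%, and 31.1% to 34.1% with a library left out, where presence in fewer lists is asked for. The knockdown-only share of 21.8% was 29.8%, 24.2% and 30.6% with a fold of at least 4, equal length and reciprocal overlap, and 26.5% to 27.9% with a library left out. The 390 stretches became 172 beyond 50 kb, 183 with a fold of at least 4, 250 with a −log10 q of at least 20 and 188 with at least 5 loci. The share of far loci in stretches, 67.8%, was then 69.7%, 52.1%, 58.9% and 45.2%, and 58.2% and 79.9% with a chaining distance of 5 and 25 kb. Leaving out a library gave 360 to 378 stretches. The mean difference in median fold, 0.00242, ranged from −0.0137 to 0.0175 without 1 library. Stretches fuller in control fell from 131 to 36 and those fuller in knockdown from 95 to 63 with a fold of at least 4. This cut kept a smaller part of the control than of the knockdown peaks.

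For the 20 named stretches, control-only minus knockdown-only loci kept their sign, or stayed at 0, in 112 of 140 alternatives, went to or from 0 in 22 and reversed in 6. The 5 stretches each with the most control-only and knockdown-only loci were picked by these same counts. A sign kept in those stretches was therefore likely beforehand and is no independent support. The stretch on chromosome 3 at 145363777 went from 5 to −2 and that on chromosome 8 at 16336099 from 1 to −1 with a fold of at least 4. That on chromosome X at 35375323 went from 1 to −2 with a fold of at least 4, a −log10 q of at least 20 or equal lists, and to −1 without knockdown replicate 2. The causes were not tested.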
